A study of Mus musculus with 60 samples.

Results

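The genes described here encode the collagens, laminins, integrins, lysyl oxidases and fibrillins of cultured mouse ear fibroblasts. They were taken by symbol, as every gene whose name follows the pattern of the Col, Lam, Itg, Lox and Fbn families, and 41 of the 10122 genes measured matched. The set was chosen with earlier results of these data known. Of these, 8 encode fibrillar collagens, 5 basement membrane collagens, 4 collagens of the beaded-filament group, 3 collagens that coat fibrils, 6 laminin chains, 6 integrin alpha chains, 2 integrin beta chains, 4 lysyl oxidases and 1 a fibrillin. The last 2 matched by spelling only: Col4a3bp encodes a ceramide transporter and Itgb3bp a centromere protein that was named for binding an integrin tail. Both are kept in every count. Col5a1, Lamb1, Itga5 and Lox were not analysed here.

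The cells were ear fibroblasts of adult DKI mice with fluorescent RelA and c-Rel reporters, immortalised by serial passage, and the line's name in the labels ends in GR NLS-iRFP-NLS. RelA and c-Rel are subunits of NF-κB, the transcription factor that carries much of the response to tumour necrosis factor (TNF-α) and interleukin-1 (IL-1β). Dishes grown at 37 °C were moved to 24, 34, 37 or 40 °C for 2 h and were then lysed, or were given 10 ng/mL of either TNF-α or IL-1β at that temperature and lysed after 1 or 3 h. Each of the 20 groups held 3 libraries, named in the labels as independent biological replicates, 60 in all. Stimulated cells thus spent a longer time at their temperature and unstimulated cells 2 h, so that a response to cytokine and the added time at that temperature cannot be told apart. All groups share 1 cell line grown in culture, without the tissue that surrounds fibroblasts in skin.

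Collagen chains fold into triple helices in the endoplasmic reticulum. Fibrillar collagens then assemble outside the cell into fibres, which lysyl oxidases cross-link, while type IV collagen and laminins form the sheets of basement membranes. Type VI collagen forms beaded filaments around cells, fibrillins form microfibrils, and integrins are the paired alpha and beta receptors by which a cell holds on to all of these. In skin, fibroblasts make most of the fibrillar matrix.

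Values are FPKM, fragments scaled to transcript length and library size, so levels of different genes can be set side by side. Differences are log2 changes of FPKM + 1 from one limma model of all genes and libraries, given with their standard error (SE). A gene was called where its two-sided p, adjusted by the Benjamini-Hochberg method over the 10122 genes, was below 0.05. Where the libraries of a called gene are said not to overlap, that describes the same values and is no further support. The scale of FPKM + 1 understates the change of genes near or below 1 FPKM. Libraries are bulk RNA, so fewer cells expressing a gene and less RNA per cell cannot be told apart.

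The depth behind each library, estimated from the step size of the deposited values, ran from 3.53 to 7.69 M fragments, where M stands for mega. The 15 libraries at 24 °C had the lowest mean depth, 4.58 M ± 0.516 (SD) against 6.38 M at 37 °C, and they carry the last numbers of the series. If they were made apart from the rest, that and the temperature cannot be told apart. Replicates correlated at r of 0.969 to 0.983 over genes in 60 pairs. Fibroblast markers were high, with Vim at a mean of 2362 FPKM. Of the markers of other cell types, Krt10 was at 4.13 FPKM or less, Vwf at 2.5 or less and Lyz2 at 4.6 or less in every library, and the cartilage transcription factor gene Sox9 was at 5.23 to 18.1 FPKM.

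The 41 genes ranged over a wide span of levels. The 2 chains of type I collagen, the main fibre of skin, stood first, with means over all 60 libraries of 1133 FPKM for Col1a2 and 1077 for Col1a1. Next came the type IV chain gene Col4a1 at 501 FPKM, the type VI chain gene Col6a3 at 409 and Itgb1, the beta chain shared by most collagen and laminin receptors, at 401. Among the 4 cross-linking enzymes of the set Loxl3 led at 213 FPKM, then Loxl1 at 160.0, Loxl2 at 44.2 and Loxl4 at 32.3. The 6 laminins of the set were led by Lama5 at 93.2 FPKM, Lamb2 at 70.9 and Lamc1 at 62.1. The 6 integrin alpha chains of the set were led by Itga11, which pairs with Itgb1 as a receptor for fibrillar collagen, at 57.5 FPKM. Itga3, a laminin receptor chain, followed at 56.9. Genes outside the set, such as Lox, Lamb1 and Itga5, have no place in these rankings. At the low end stood Lamb3 at 0.705 FPKM, Col9a1 at 0.599 and Col24a1 at 0.537. Col24a1 was below 1 FPKM in 53 of 60 libraries, and its replicates could differ widely: unstimulated cells at 24 °C gave 0.08, 0.17 and 4.45 FPKM.

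**Figure D1:**
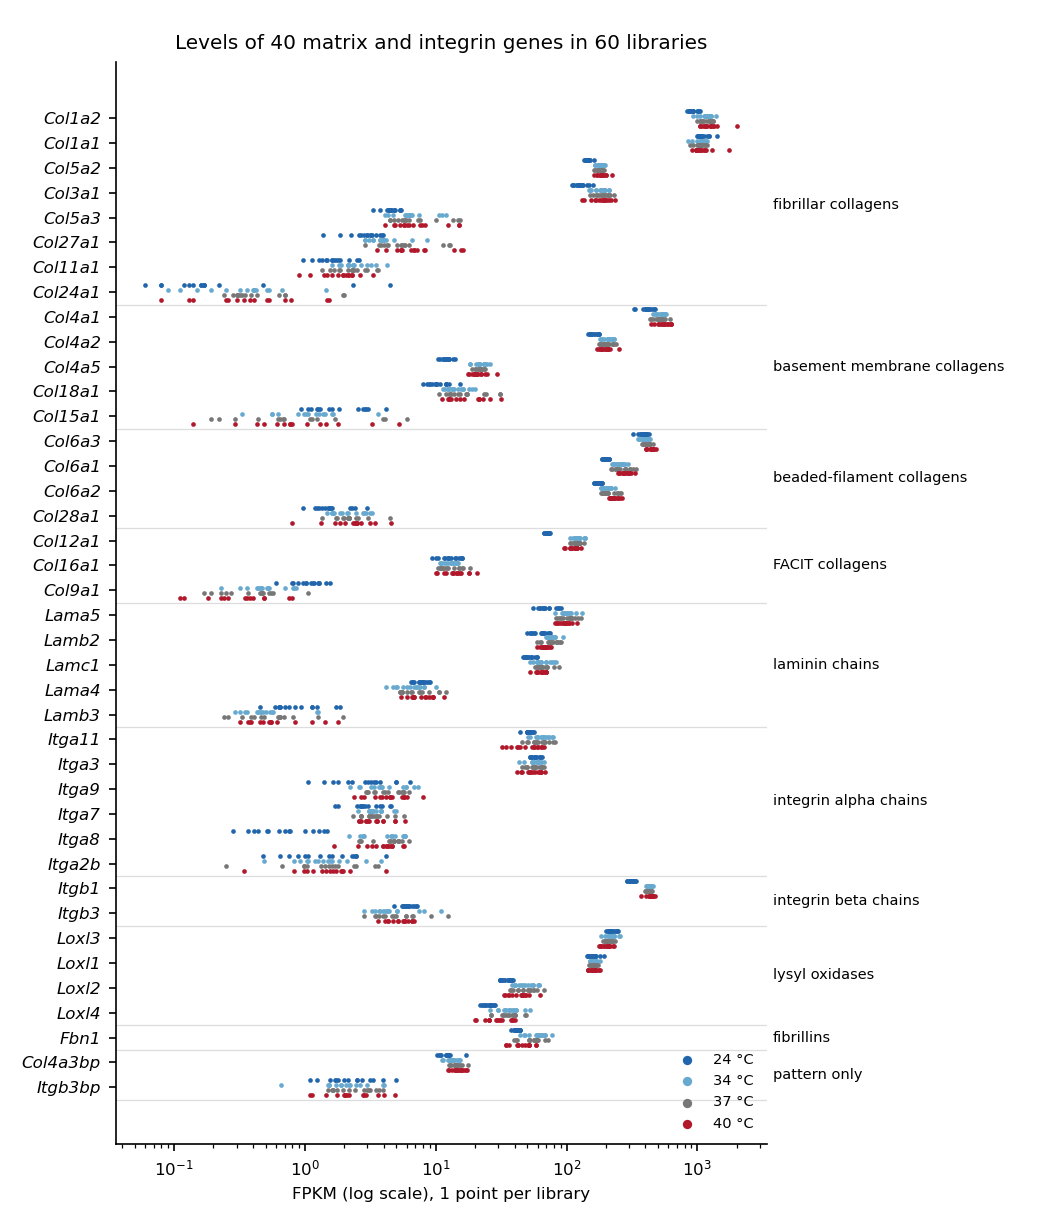
FPKM on a log axis of 40 of the 41 genes, grouped by class, with 1 point per library (60 per gene) coloured by temperature. Type I collagen lies at the top, with a mean of 1133 FPKM for Col1a2, and Col24a1 lies mostly below 1; a single Col9a1 value of 0 cannot be drawn on the log axis.

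Some genes hardly moved over the 20 groups and others moved a great deal. The ratio of the highest to the lowest group mean was 1.18 for Loxl1, which cross-links elastic fibres. It was 12.4 for Col24a1, whose highest group is the unstimulated one at 24 °C with the library at 4.45 FPKM. It was 11.4 for Itga8, 5.65 for Col27a1, 3.77 for Col5a3 and 3.13 for Col18a1. Itga8 encodes the alpha chain of a receptor for fibronectin and nephronectin. Temperature separated its libraries: it was at 0.28 to 1.48 FPKM in the 15 libraries at 24 °C and at 1.68 to 6.26 in the other 45.

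At 24 °C, unstimulated cells had less RNA of many fibrillar and type VI collagens, laminins and integrins than cells at 37 °C. The cross-linking enzymes were not called here, but Loxl2 and Loxl4 were called as lower in the average over 5 treatments given further on. By limma, 18 of the 41 genes fell and 1 rose, that is 43.9% and 2.44% of them, where 11.3% of all genes tested fell and 9.44% rose. The median log2 change was -0.28 over the 41 genes and -0.03 over all genes. Falls were counted for 5 of 8 fibrillar collagens, 2 of 5 basement membrane collagens, 3 of 4 beaded-filament collagens, 1 of 3 fibril-coating collagens, 3 of 6 laminins, 3 of 6 integrin alpha chains and 1 of 2 beta chains. No call was made for the 4 lysyl oxidases, for Fbn1 or for the 2 genes matched by spelling. Of the contractile cell markers, 3 of 5 were measured, and Cnn1 and Tagln changed by -0.44 and -0.30 and were called. Their summed level was 689 to 795 FPKM over the 15 libraries at 24 °C and 745 to 984 at 37 °C, and their part in the falls was not tested.

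Of the genes of the type I and III fibres, Col3a1 and Col1a2 fell at 24 °C and Col1a1 was not called. Col3a1, whose product joins type I collagen in thin fibres, read 229.71, 194.79 and 214.74 FPKM at 37 °C and 123.85, 147.19 and 134.63 at 24 °C. Every library at 24 °C lay below every library at 37 °C, a log2 change of -0.65 (SE 0.09, adjusted p = 1.6e-07 by limma). Col1a2 read 1319.03, 1163.6 and 1323.81 at 37 °C against 1035.99, 875.96 and 868.14 at 24 °C. Its groups too were separate, and its log2 change was -0.46 (SE 0.12, adjusted p = 0.00559 by limma). Its partner chain Col1a1 read 1178.26, 1029.6 and 1147.58 at 37 °C and 1406.65, 1070.86 and 1054.41 at 24 °C. These ranges overlap, and the change of 0.06 (SE 0.12, adjusted p = 0.755) was not called. Col11a1, a minor chain that is built into fibres, was low at both temperatures, with 3.65, 2.51 and 1.87 FPKM at 37 °C and 0.97, 1.47 and 1.36 at 24 °C. Its fall of 0.68 on the log2 scale (adjusted p = 0.029 by limma) lost its call without replicate 1 or 2 at 37 °C and without replicate 1 or 3 at 24 °C.

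The type I chains thus stood in another proportion at 24 °C, a comparison made after the values were seen and given without a test. The ratio of Col1a1 to Col1a2 ran from 1.09 to 1.36 in the 15 libraries at 24 °C, with a median of 1.19. It ran from 0.844 to 0.951 at 34 °C, from 0.818 to 0.980 at 37 °C and from 0.842 to 0.942 at 40 °C, 15 libraries each. No library at 24 °C overlapped with any of the other 45, whatever its treatment. Type VI collagen is built from 3 chains, and there the ratio of Col6a3 to Col6a1 had a median of 1.97 at 24 °C and of 1.56, 1.55 and 1.55 at 34, 37 and 40 °C. The ranges of this ratio overlapped: 1.66 to 2.25 at 24 °C against 1.29 to 1.80, 1.24 to 1.96 and 1.32 to 1.97. The ratio of Col4a1 to Col4a2, the chains of the common type IV collagen, had medians of 2.53, 2.56, 2.50 and 2.78 from 24 to 40 °C, within a range of 2.20 to 3.29 over all libraries. Library 1 of the 40 °C group with TNF-α for 1 h stood apart, with 1731.87 FPKM of Col1a1 and 2004.57 of Col1a2, where the other 2 libraries of its group had 1000.19 and 1169.87 of Col1a1 and 1140.65 and 1262.54 of Col1a2. Both chains were high in it together, and its estimated depth of 4.69 M was the lowest at 40 °C.

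**Figure D2:**
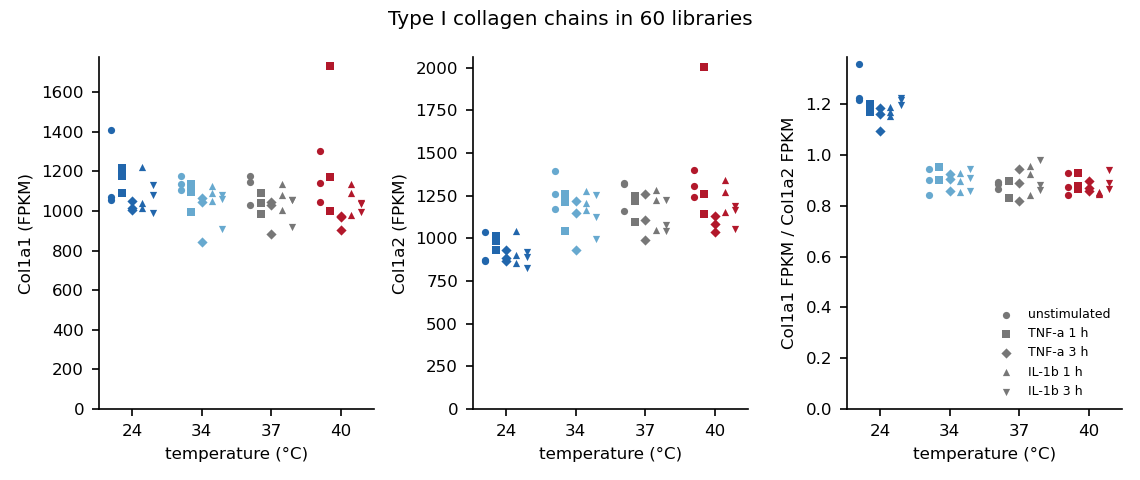
Levels of Col1a1 and Col1a2 (FPKM) and their ratio by temperature, with 1 point per library and the marker shape giving the treatment. The ratio is at 1.09 or above in all 15 libraries at 24 °C and at 0.980 or below in the other 45.

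Col12a1, which encodes the type XII collagen that coats type I fibres, gave the smallest adjusted p of the 41 genes at 24 °C. It read 135.44, 126.86 and 122.74 FPKM at 37 °C and 67.46, 73.88 and 70.44 at 24 °C, a log2 change of -0.85 (SE 0.05, adjusted p = 3.3e-16 by limma). Over all treatments it lay between 67.19 and 74.36 FPKM at 24 °C and between 95.39 and 137.37 elsewhere. Col9a1, a cartilage collagen of the same fibril-coating class, was the only member called as higher, and went from 0.37, 0.45 and 0.47 FPKM to 1.29, 1.11 and 1.26. The 2 groups were separate and the log2 change was 0.63 (SE 0.18, adjusted p = 0.00846 by limma). Col9a1 was below 1 FPKM in 49 of 60 libraries and reached at most 1.06 outside 24 °C. Every gene of the table reached 1 FPKM in at least 4 libraries. Col9a1 thus has its place there mainly through 24 °C, where its median was 1.11, and its rise is given as a description only. Sox9, another chondrocyte marker, rose by 1.02 at the same time, and Comp, the third one measured, was not called. In the average over 5 treatments Comp changed by -0.23 and Sox9 by 0.85, both called. Col2a1, Acan and Matn3 were not analysed here. The summed level of the 3 chondrocyte markers measured of 6 listed, Col9a1 among them, ran from 16.8 to 24.3 FPKM at 24 °C and from 12.2 to 21.2 at 37 °C. The part of these markers in the rise of Col9a1 was not tested.

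Among the basement membrane collagens Col4a5, which encodes a chain of specialised basement membranes, fell by 0.76 on the log2 scale, with an SE of 0.11 and an adjusted p of 6.9e-07, from 23.74, 21.73 and 21.47 FPKM to 13.96, 11.80 and 12.70. The groups did not overlap. Col4a1 read 619.44, 461.06 and 509.14 FPKM at 37 °C and 468.78, 415.4 and 474.31 at 24 °C, ranges that overlap, and its change of -0.22 (adjusted p = 0.161) was not called. In type VI collagen, Col6a1 read 303.56, 247.02 and 234.96 FPKM at 37 °C and a close 195.06, 197.27 and 192.58 at 24 °C. The groups were separate and the log2 change was -0.41 (SE 0.11, adjusted p = 0.00406 by limma). Of the laminins, Lamc1, the gamma chain of most laminins, read 61.89, 59.25 and 57.58 FPKM at 37 °C against 48.4, 48.87 and 47.97 at 24 °C and fell by 0.29 on the log2 scale.

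The integrin chains that were called all fell. Itga8 went from 5.49, 4.38 and 4.70 FPKM to 1.28, 0.70 and 1.48, a log2 change of -1.46 (SE 0.29, adjusted p = 2.1e-04 by limma). Itga9, the alpha chain of a receptor for tenascin-C and osteopontin, went from 2.93, 5.53 and 5.20 FPKM to 1.65, 2.13 and 1.05, a log2 change of -1.08 (SE 0.30, adjusted p = 0.00702). Neither pair of groups overlapped, but the replicates of Itga9 at 37 °C were spread widely, and its call was lost in a fit of those 2 groups alone. Itgb1 was abundant and tight, with 416.93, 408.72 and 426.16 FPKM at 37 °C and 287.56, 324.13 and 325.28 at 24 °C, a log2 change of -0.42 (SE 0.06, adjusted p = 1.1e-06 by limma). Neither Loxl2 nor Fbn1 was called. Loxl2, a cross-linking enzyme of type IV collagen, changed by -0.46 (SE 0.18, adjusted p = 0.0665) and Fbn1, the main microfibril protein, by -0.25 (SE 0.15, adjusted p = 0.261). Loxl2 read 52.89, 42.65 and 37.35 FPKM at 37 °C and 30.84, 30.88 and 33.42 at 24 °C, groups that did not overlap. Loxl1 was level across the study, at 160 FPKM ± 13.3 at 24 °C, 161 ± 7.92 at 34 °C, 159 ± 7.22 at 37 °C and 161 ± 11.2 at 40 °C (SD over 15 libraries each).

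**Figure D3:**
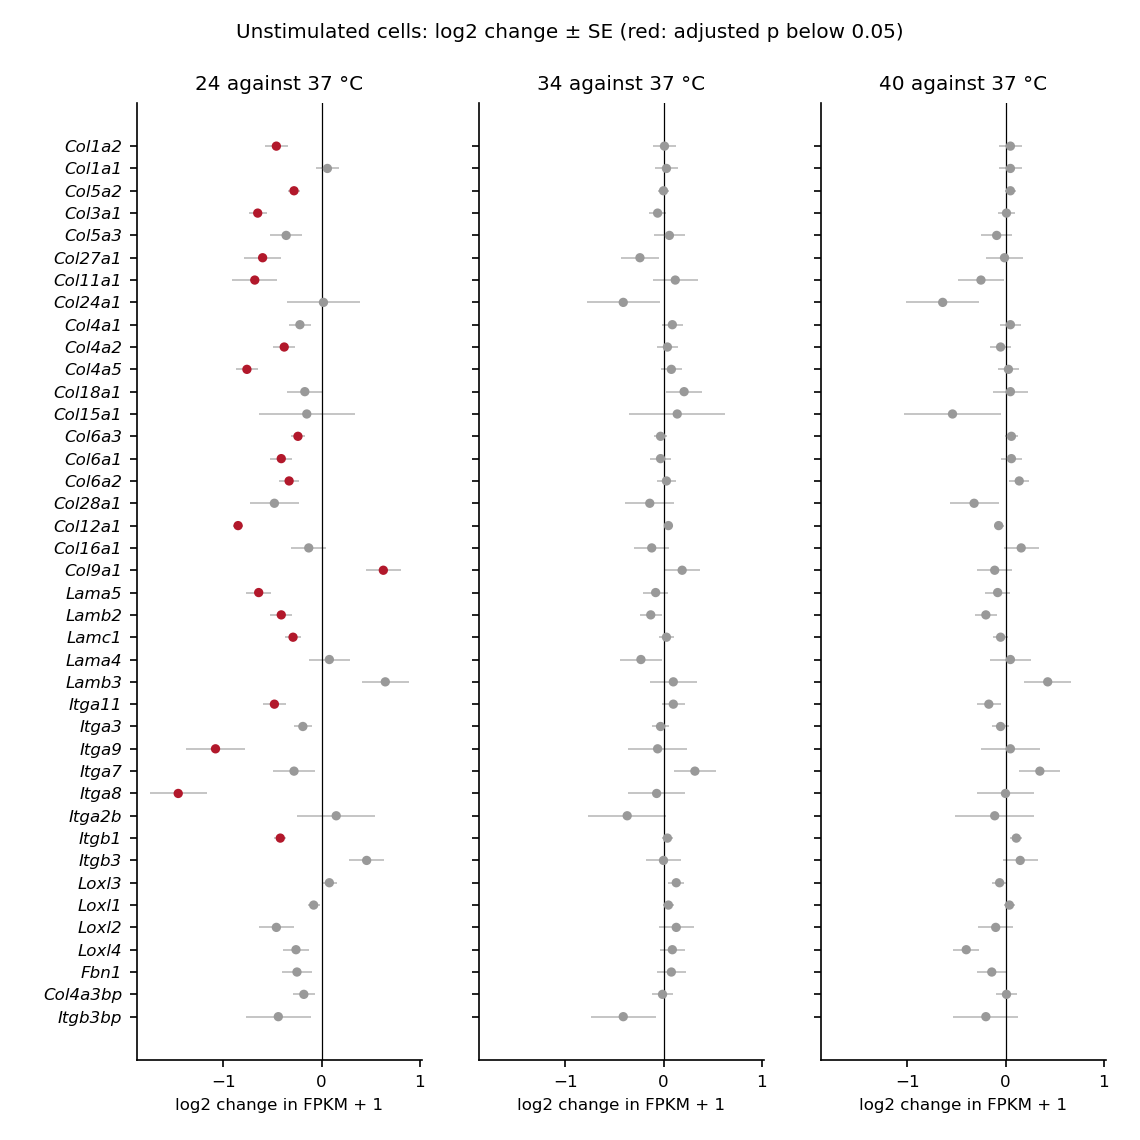
Log2 change (of FPKM + 1, ± SE, 3 libraries a group) of 40 of the 41 genes in unstimulated cells at 24, 34 and 40 °C against 37 °C, with called genes in red. Red points appear at 24 °C only, where 18 lie below 0 and 1 above.

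At 34 and 40 °C no member was called in unstimulated cells. At 34 °C 0 of 41 were called, and 0 had an unadjusted p below 0.05, where 0.188% of all genes rose and 0.178% fell. At 40 °C, where 2.14% of genes rose and 2.00% fell, 0 were called and 1 had an unadjusted p below 0.05. That gene was Loxl4, with a change of -0.40 (SE 0.13) and an adjusted p of 0.0566 by limma. It was named after its values were seen.

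Averaging each temperature over its 5 treatments, with 15 libraries a side, gave smaller SE. These 15 libraries carry 3 replicate numbers, and the fit took them as independent. At 24 °C Col6a1, Col3a1 and Col27a1 were highest in number 2 in 5 of 5 groups, though not every member followed the number. Between 24 °C and the rest, same-numbered libraries hardly deviated together (median r of 0.0206 over members). If a number marks a shared source, the calls at 24 °C rest on fewer independent units. Their SE and adjusted p could then be too small. At 24 °C 26 of the 41 genes fell and 2 rose, 63.4% and 4.88% of them, where 28.8% of all genes fell and 26.1% rose. The median log2 change was -0.29 over the members and -0.01 over all genes. The largest falls were those of Itga8 (-1.60), Col4a5 (-0.80), Col27a1 (-0.79), Col12a1 (-0.74), Col18a1 (-0.64) and Col3a1 (-0.56). Loxl2 and Loxl4, 2 of the 4 lysyl oxidases, were called as lower too, as was Fbn1 (-0.39). The rises were those of Col9a1 (0.55) and Itgb3 (0.20, adjusted p = 0.0328 by limma), and the latter call was lost under 11 of 36 alternatives. Col9a1 is in the table mainly through its libraries at 24 °C, as said above. Col27a1, a fibrillar collagen of cartilage and developing tissue, and Col18a1, whose product releases the fragment endostatin, are also the genes whose responses to TNF-α are given further on. For 6 genes, 14.6% of the members, every library at 24 °C lay below all 45 others, as it did for 1.07% of all genes. These were Col4a5, Col6a1, Col12a1, Itga8, Itgb1 and Col5a2, a chain of the fibre-forming type V collagen, the last at 137.08 to 161.8 FPKM against 162.35 to 224.2. Above all others lay 0 members and 1.30% of genes.

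At 34 °C the averaged comparison called 1 member, where 4.58% of all genes rose and 7.04% fell: the change of Col27a1 was -0.41 (SE 0.08, adjusted p = 4.3e-04 by limma). At 40 °C 3 rose and 6 fell, shares of 7.32% and 14.6% beside 12.1% and 15.4% of all genes. Col27a1 rose by 0.29 and the type VI chains Col6a2 and Col6a3 by 0.12 and 0.11. Among the falls were those of Itga11 (-0.31), Loxl4 (-0.31), Fbn1 (-0.24), the laminin chain gene Lamb2 (-0.16) and Col12a1 (-0.09). The call of Col6a2 was lost under 14 of 36 alternatives.

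A separate list held genes whose products modify collagen or carry it out of the cell. Of its 30 genes 24 were measured. In unstimulated cells at 24 °C 3 rose and 7 fell, with a median of -0.09, where 9.44% of all genes rose and 11.3% fell. P4ha2, a subunit of the prolyl hydroxylase that stabilises the triple helix, rose by 0.52, and P3h2, another prolyl hydroxylase, fell by 0.68 on the log2 scale. In unstimulated cells at 40 °C 5 rose and 0 fell, with a median of 0.05, where 2.14% of all genes rose and 2.00% fell. P4ha1, the main catalytic subunit of that enzyme, rose by 0.92 (SE 0.08, adjusted p = 1.6e-11 by limma). Serpinh1, the collagen chaperone known as HSP47, a heat-shock protein, rose by 0.88 (SE 0.09, adjusted p = 1.6e-09). In the same cells no collagen gene was called. In other lists, 21 of 36 other matrix proteins were measured and at 24 °C 1 rose and 8 fell, with Ogn at -1.75, Aspn at -1.66 and Thbs1 at -1.53. Of 19 matrix proteases and inhibitors measured, 2 rose, Timp1 by 0.53 and Timp3 by 0.24, and 3 fell, with Adamts1 at -1.10. Of 14 integrin adhesion genes measured, 3 rose and 6 fell, and of 17 genes of the transforming growth factor beta pathway 3 rose and 3 fell.

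After 3 h of TNF-α at 37 °C the minor collagen genes Col5a3, Col27a1 and Col18a1 rose, as did Itgb3, Loxl4 and Lamc1, and Col3a1, Itga11, Itga3 and Col12a1 fell. The 6 rises and 4 falls are 14.6% and 9.76% of the members, where 6.55% of all genes rose and 7.46% fell. The median log2 change was -0.05 over the members and -0.04 over all genes. Of the 5 fibroblast markers measured of 6 listed, Pdgfrb and Vim changed by -1.06 and -0.14 and were called; their part in these results was not tested. The members that rose are first shown by the DNA before their start, for those with an entry in the RefSeq promoter table: 250 bases upstream of the transcription start on the gene's own strand in GRCm38.p6, with matches to CCAAT or GGGCGG or to the NF-κB letters GGGANTTCC in capitals, on either strand (so that CCGCCC and ATTGG are the same letters on the other strand).
Col5a3 (chr9:20815068-20815317, minus strand): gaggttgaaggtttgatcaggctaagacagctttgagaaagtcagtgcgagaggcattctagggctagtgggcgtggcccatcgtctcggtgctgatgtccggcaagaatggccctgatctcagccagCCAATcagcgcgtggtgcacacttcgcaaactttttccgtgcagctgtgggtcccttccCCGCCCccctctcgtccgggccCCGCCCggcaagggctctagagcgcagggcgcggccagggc
Col27a1 (chr4:63215162-63215411, plus strand): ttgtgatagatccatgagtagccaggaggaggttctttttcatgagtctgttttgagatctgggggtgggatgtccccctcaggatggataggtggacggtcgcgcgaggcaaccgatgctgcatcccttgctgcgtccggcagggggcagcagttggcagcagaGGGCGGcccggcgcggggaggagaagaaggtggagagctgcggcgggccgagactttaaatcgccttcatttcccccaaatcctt
Col18a1 (chr10:77166531-77166780, minus strand): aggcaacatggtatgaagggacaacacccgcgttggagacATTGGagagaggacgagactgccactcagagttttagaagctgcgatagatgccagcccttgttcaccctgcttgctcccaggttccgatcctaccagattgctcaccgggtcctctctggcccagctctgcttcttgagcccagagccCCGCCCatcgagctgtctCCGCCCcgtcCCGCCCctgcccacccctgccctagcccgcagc
Loxl4 (chr19:42612807-42613056, minus strand): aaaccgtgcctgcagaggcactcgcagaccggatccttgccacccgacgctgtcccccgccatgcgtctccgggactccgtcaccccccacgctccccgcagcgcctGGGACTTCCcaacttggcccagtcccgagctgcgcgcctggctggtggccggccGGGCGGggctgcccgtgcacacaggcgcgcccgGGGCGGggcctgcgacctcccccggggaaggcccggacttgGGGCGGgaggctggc

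Of the 41 members, 29 had an entry, with 34 windows. GGGANTTCC was present in 1.43% of the 32851 windows of the table and, of the members, in Loxl4 alone. A second form of the NF-κB letters was in 1.41% of windows and in 0 members. TGANTCA, the AP-1 letters, was in 6.75% of windows and, of the members, in Col6a1. CCAAT was in 33.85% of windows and in 10 of the 34 member windows, from 10 members. GGGCGG was in 32.74% of windows and in 16 of the 34, from 14 members. Col18a1 has a second window, at chr10:77113706-77113955, with 0 matches. Itgb3 and Lamc1, which also rose, are named only. These matches describe letters and not bound sites.

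Col5a3 (ENSMUSG00000004098.7), a minor type V chain, read 6.19, 5.13 and 4.44 FPKM unstimulated and 15.36, 14.8 and 13.52 after 3 h of TNF-α at 37 °C. The groups were far apart, and the log2 change was 1.32 (SE 0.16, adjusted p = 9.6e-09 by limma). Col27a1 (ENSMUSG00000045672.15) went from 5.71, 3.84 and 3.67 FPKM to 12.95, 11.4 and 12.67, a change of 1.32 (SE 0.19, adjusted p = 3.7e-07). Col18a1 (ENSMUSG00000001435.15) went from 10.59, 11.94 and 13.11 FPKM to 30.92, 30.9 and 24.14, a change of 1.20 (SE 0.18, adjusted p = 9.7e-07). In each of these 3 collagen genes the lowest treated library was above the highest untreated library. The genes were picked as called in the same libraries, so this adds no support.

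The other 3 rises were of a receptor chain, a cross-linking enzyme and a laminin. Itgb3, the beta chain of the vitronectin receptor, read 5.91, 4.12 and 2.81 FPKM unstimulated and 12.4, 9.12 and 6.73 with TNF-α, a change of 0.99 (SE 0.18, adjusted p = 7.1e-05 by limma). Both groups were widely spread, yet did not overlap. Loxl4 went from 33.33, 26.41 and 26.38 FPKM to 49.3, 40.51 and 47.91 and rose by 0.66 (SE 0.13, adjusted p = 8.4e-05). Lamc1 went from 61.89, 59.25 and 57.58 FPKM to 87.58, 79.83 and 68.08 and rose by 0.39 (SE 0.08, adjusted p = 2.8e-04). Of the partners of Itgb3, Itgav, the alpha chain of the vitronectin receptor, rose by 0.30 (adjusted p = 0.0396), while Itga2b, the platelet partner, had a mean of 1.63 FPKM over all libraries. Itgav is spelled outside the pattern of numbered chains and is no member.

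The 4 falls were of fibre collagens and integrin alpha chains. Col3a1 went from 229.71, 194.79 and 214.74 FPKM to 166.97, 151.11 and 158.64, a change of -0.42 (SE 0.09, adjusted p = 2.6e-04 by limma). Itga11 went from 78.54, 58.24 and 68.78 FPKM to 57.96, 45.56 and 49.92, a change of -0.41 (SE 0.12, adjusted p = 0.0116). Itga3 went from 64.2, 61.37 and 66.79 FPKM to 49.73, 47.76 and 55.21, a change of -0.33 (SE 0.09, adjusted p = 0.00658). Col12a1 went from 135.44, 126.86 and 122.74 FPKM to 108.72, 111.96 and 105.31, a change of -0.24 (SE 0.05, adjusted p = 0.001). The treated libraries of these 4 genes were all below the untreated ones, which describes the values that gave the calls and adds no support. The call of Itga11 was lost without replicate 1 of the unstimulated group and without replicate 2 of the treated group, and that of Itga3 without the latter. In a fit of only the groups compared, the calls of Itga11 and Col12a1 and of the rises of Itgb3 and Lamc1 were lost. The most abundant members were not called, with changes of -0.18 for Col1a1 and for Col1a2, -0.05 for Col4a1 and 0.02 for Itgb1.

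**Figure D4:**
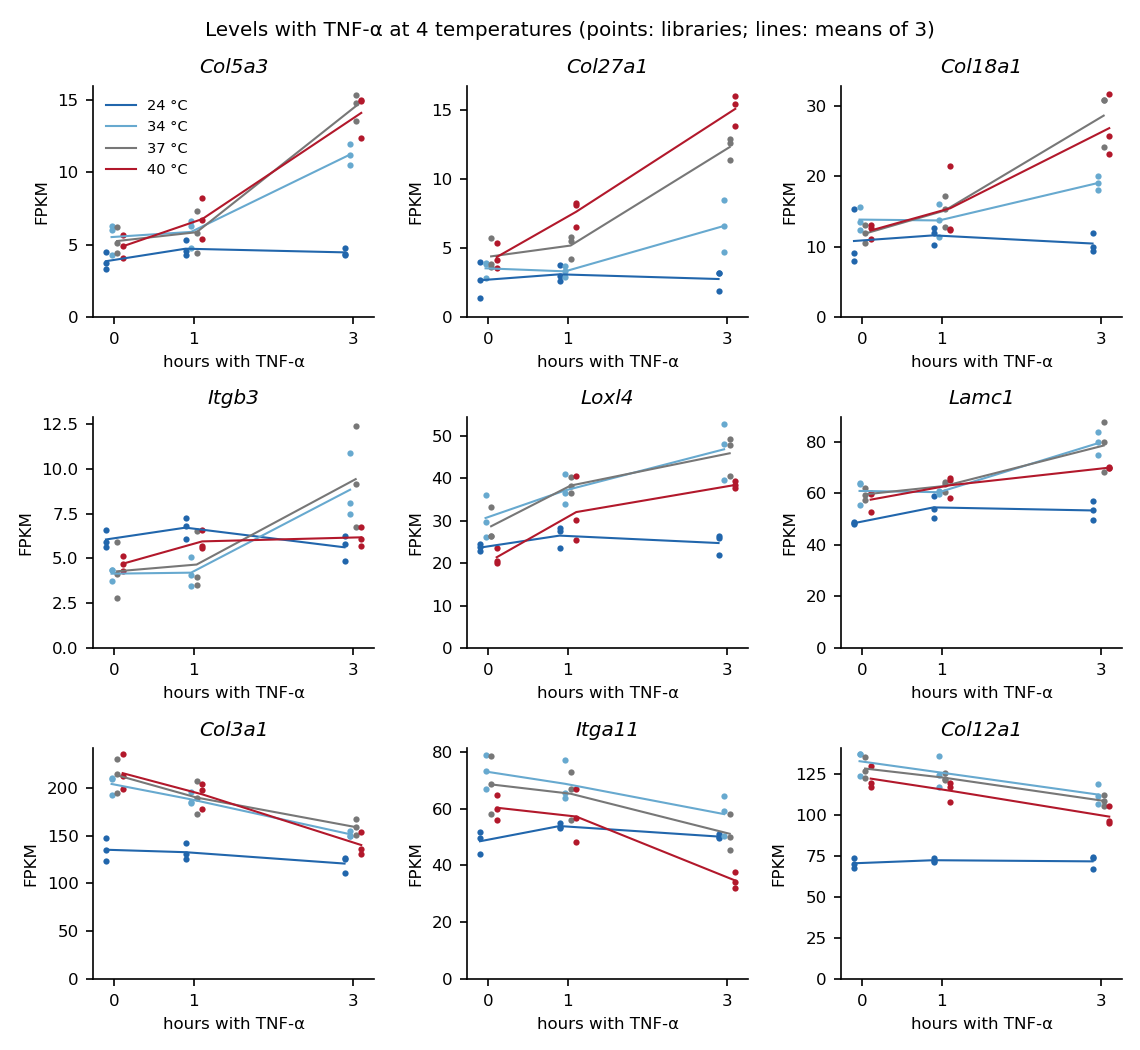
FPKM of 9 genes against hours of TNF-α (0, 1 and 3 h) at the 4 temperatures, with points for libraries and lines through the means of 3. Col5a3, Col27a1, Col18a1, Itgb3, Loxl4 and Lamc1 climb by 3 h at 37 °C while their lines at 24 °C stay near their start; Col3a1, Itga11 and Col12a1 go down at 37 °C.

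In the matrix lists the same 3 h of TNF-α at 37 °C raised 2 and lowered 2 of 24 collagen-modifying genes, with P4ha2 at 1.04 and P3h2 at -0.81. Of all genes 6.55% rose and 7.46% fell, and the counts of the lists were not tested against these shares. Of 21 other matrix proteins Nid1, which links laminin to type IV collagen, rose by 0.35 and Fn1, the gene of fibronectin, by 0.22, and 3 fell, among them Thbs1 at -1.10. Of 19 proteases and inhibitors 3 rose, with Adamts4, which cleaves aggrecan, at 1.56, and 3 fell, with Adamts1 at -2.07. Of 17 genes of the transforming growth factor beta pathway, which drives collagen synthesis in fibroblasts, 3 rose, with Tgfb1 at 0.76, and 6 fell, with the inhibitor Smad6 at -1.70. Of 14 integrin adhesion genes 2 rose and 1 fell.

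At 24 °C TNF-α for 3 h called 0 of the 41 genes, where 1.37% of all genes rose and 1.05% fell; 2 members had an unadjusted p below 0.05. Col5a3 read 3.75, 4.5 and 3.33 FPKM unstimulated and 4.39, 4.76 and 4.26 treated, and Col18a1 15.44, 7.95 and 9.07 unstimulated and 11.98, 9.4 and 10.0 treated. Loxl4 read 23.74, 22.76 and 24.54 FPKM unstimulated and 26.44, 21.95 and 25.87 treated. All of these groups overlap. The log2 changes at 24 °C were 0.18 for Col5a3, 0.08 for Col27a1, 0.00 for Col18a1, -0.10 for Itgb3, 0.06 for Loxl4 and 0.13 for Lamc1.

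The difference between the responses at 24 and 37 °C was itself tested, as an interaction term in the same limma model. It was called for 6 members, 5 with a negative term and 1 with a positive, 12.2% and 2.44% of them. Of all genes 4.10% were lower and 3.82% higher. The term was -1.24 for Col27a1 (SE 0.26, adjusted p = 8.8e-04), -1.20 for Col18a1 (SE 0.25, adjusted p = 7.7e-04), -1.15 for Col5a3 (SE 0.23, adjusted p = 3.3e-04) and -1.08 for Itgb3 (SE 0.26, adjusted p = 0.00415). Loxl4, named after its values were seen, had a term of -0.60 (SE 0.18, adjusted p = 0.0234). For Col12a1, which fell at 37 °C and changed by 0.02 at 24 °C, the term was 0.26 (SE 0.08, adjusted p = 0.0227), and the call was lost under 6 of 18 alternatives. In a fit of only the groups compared, the calls of Col27a1, Itgb3, Loxl4 and Col12a1 were lost. Lamc1, with a term of -0.25 (adjusted p = 0.193), and Col3a1, with 0.26 (adjusted p = 0.222), were not called.

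At 34 and 40 °C the TNF-α response was again made up of rises and falls. Each temperature called 5 members as higher and 4 as lower, 12.2% and 9.76% of them. Of all genes 5.71% rose and 6.86% fell at 34 °C, and 9.91% rose and 9.36% fell at 40 °C. The members' shares at 40 °C were thus near those of all genes. Col27a1 was at 3.82, 3.93 and 2.87 FPKM unstimulated and 6.6, 8.5 and 4.76 treated at 34 °C, a change of 0.73, and at 5.39, 4.13 and 3.55 FPKM unstimulated and 15.46, 13.84 and 16.04 treated at 40 °C, a change of 1.60. All of its treated libraries were above the untreated ones at both temperatures. Side by side, Col5a3 changed by 0.92, 1.32 and 1.36 at 34, 37 and 40 °C, Itga11 was called at 37 and 40 °C with -0.41 and -0.78, and Col3a1 changed by -0.43, -0.42 and -0.62. Itgb3 rose by 0.92 at 34 °C and was not called at 40 °C (0.33, adjusted p = 0.235), where it read 4.7, 4.28 and 5.12 FPKM unstimulated and 6.76, 6.09 and 5.67 treated. Col18a1 changed by 0.44 at 34 °C, which was not called (adjusted p = 0.104), and rose by 1.06 at 40 °C. No member was called in the difference of the TNF-α responses between 34 and 37 °C, where 0 of all genes were called, or between 40 and 37 °C, where 0.0988% were higher and 0.207% lower. Itga3 and Loxl3 were also called at 34 °C, with -0.30 and -0.24, and lost their calls under 5 and 7 of 12 alternatives. With TNF-α at 40 °C the fibroblast markers Pdgfrb (-0.97), Vim (-0.26), Thy1 (-0.24) and Pdgfra (0.33) and the contractile cell markers Cnn1 (-0.46) and Tagln (-0.29) were called too, and at 34 °C Pdgfrb (-0.68). The part of these markers in the members' changes was not tested. The responses at 1 temperature share their unstimulated libraries.

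After 1 h of cytokine few members were called, all of them at 40 °C. With TNF-α, where 3.02% of genes rose and 2.35% fell, Col27a1 rose by 0.70 (adjusted p = 0.0143 by limma) and Loxl4 by 0.54 (adjusted p = 0.00349). With IL-1β, where 2.20% rose and 0.958% fell, Loxl4 rose by 0.44 (adjusted p = 0.0359). The calls of Col27a1 with TNF-α and of Loxl4 with IL-1β were each lost under 5 of 12 alternatives, 4 of which leave out 1 library (replicate 2 or 3 of either group for Col27a1, and unstimulated replicate 2 or 3 or IL-1β replicate 1 or 2 for Loxl4). The call of Loxl4 with TNF-α was lost without library 1 of the treated group, the one that stood apart for type I collagen. At 24, 34 and 37 °C 0 members were called at 1 h with either cytokine. At 37 °C Loxl4 changed by 0.41 with TNF-α (adjusted p = 0.0630), and a difference between temperatures at 1 h was not tested. Of all genes, TNF-α for 1 h raised 0.119%, 1.51% and 2.30% at these temperatures and lowered 0.0494%, 0.207% and 0.692%. IL-1β for 1 h raised 0.0395%, 1.11% and 1.57% and lowered 0.00988%, 0.0494% and 0.306%.

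IL-1β, which reaches NF-κB through another receptor, called fewer members than TNF-α after 3 h at 37 °C, and fewer of all genes too. There 1 member rose and 1 fell, 2.44% of the members each, beside 2.42% and 1.93% of all genes. The members' shares were thus near those of all genes. Itga3 fell by 0.36 on the log2 scale (adjusted p = 0.00796 by limma). Col18a1, at 17.33, 23.34 and 14.73 FPKM treated against 10.59, 11.94 and 13.11 unstimulated, rose by 0.58 with an adjusted p of 0.0499, at the edge of the threshold. That call was lost under 8 of 12 alternatives. At 34 °C Col12a1 fell by 0.18 on the log2 scale (adjusted p = 0.0356), beside 2.66% of genes that rose and 2.62% that fell, and this call was lost under 6 of 12. At 24 °C 0 members were called, beside 0.919% and 0.504%, and 2 had an unadjusted p below 0.05.

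At 40 °C IL-1β called 7 members, 3 up and 4 down, or 7.32% and 9.76% of them, beside 4.63% and 4.02% of all genes. Col18a1 rose by 0.63, Col27a1 by 0.58 and Col5a3 by 0.48, and Itga3 and Itga11 each changed by -0.48 and Col3a1 by -0.32. The calls of Col18a1, Col27a1, Col5a3 and Col3a1 were lost under 4, 7, 6 and 3 of 12 alternatives. Those of Itga3 and Itga11 were lost under 0. Col12a1, named after its values were seen, changed by -0.17. Of the fibroblast and contractile cell markers Pdgfra (0.47), Vim (-0.21) and Tagln (-0.26) were called, and their part was not tested. The count of members was 3 without IL-1β replicate 1 or 2 and 4 without unstimulated replicate 1 or 2. No member was called in any difference of IL-1β responses from that at 37 °C, where 1.06% of genes were higher and 1.23% lower for 24 °C, 0 of all genes for 34 °C, and 0.0198% and 0.168% for 40 °C. A difference of the IL-1β response between temperatures was thus not shown for any member. At 37 °C Col5a3 changed by 0.47 with IL-1β (adjusted p = 0.0909), close in size to its called change at 40 °C.

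**Figure D5:**
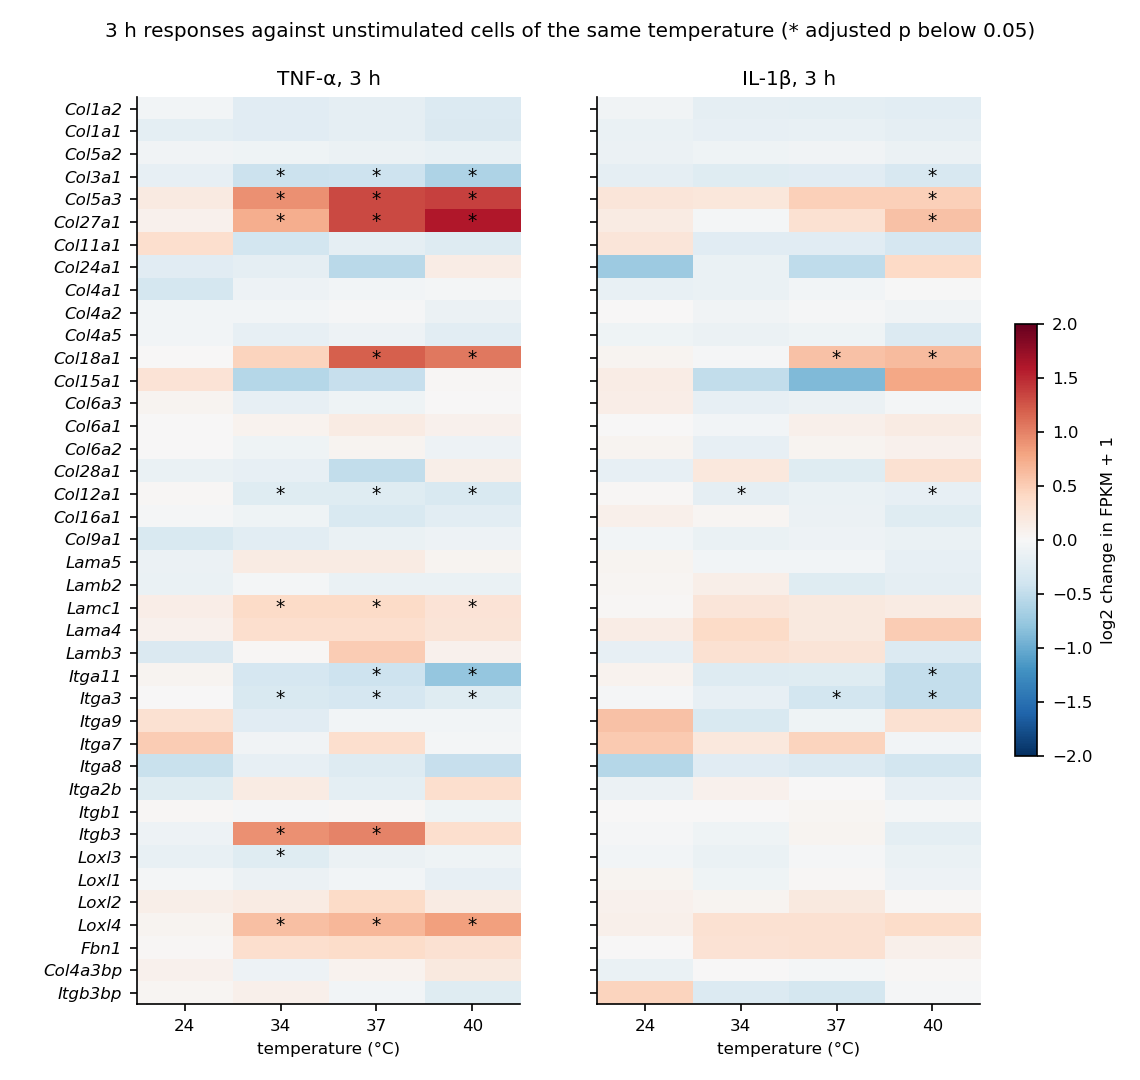
Log2 changes (of FPKM + 1) of 40 of the 41 genes after 3 h of TNF-α and of IL-1β at 24, 34, 37 and 40 °C against unstimulated cells of the same temperature, as a heat map with an asterisk where the adjusted p is below 0.05. The columns for 24 °C hold no asterisk; at 40 °C TNF-α has 9 and IL-1β 7.

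The 2 cytokines were compared directly at 3 h over the 4 temperatures. TNF-α gave higher levels of 6 members and lower levels of 1, or 14.6% and 2.44% of them, beside 4.81% and 4.76% of all genes. The difference was 0.68 for Col27a1, 0.60 for Itgb3, 0.59 for Col5a3 and 0.36 for Col18a1, and -0.16 for Col3a1, each called by limma. Itgb3 was called with TNF-α at 34 and 37 °C and with IL-1β at no temperature: with IL-1β it changed by -0.03, -0.08, 0.05 and -0.19 at 24, 34, 37 and 40 °C, and with TNF-α by -0.10, 0.92, 0.99 and 0.33. Itga3 was called with both cytokines at 37 °C, by -0.33 with TNF-α and -0.36 with IL-1β, against the same unstimulated libraries.

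Several members are neighbours in the genome, and those named here were taken up after their values were seen. In RefSeq, Col3a1 and Col5a2, Col6a2 and Col6a1, and Col4a1 and Col4a2 lie next to each other. The last pair is transcribed in opposite directions, Col4a1 from the minus and Col4a2 from the plus strand, and in GRCm38.p6 each gene runs through the start of the other, so that the 20 bases between the starts, shown here, lie in both.
Col4a1-Col4a2 (chr8:11312806-11312825, plus strand): gtgcgcgggcggcgtctcca
At 24 °C in unstimulated cells Col4a2 read 173.55, 153.32 and 151.66 FPKM against 237.98, 188.91 and 197.94 at 37 °C, separate groups, and was called, while Col4a1 was not. The log2 changes were -0.38 for Col4a2 and -0.22 for Col4a1, and a difference between the 2 genes was not tested. Col3a1 and Col5a2, which changed by -0.65 and -0.28, both fell at 24 °C, as did Col6a1 and Col6a2, with -0.41 and -0.33.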

How the data were processed

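RNA of 60 libraries of an immortalised mouse ear fibroblast line, 3 for each of 20 groups, was measured by sequencing. The authors deposited 1 table of FPKM for 10122 genes; the submitters' processing notes name STAR 2.7.11b, RSEM 1.3.3, edgeR (version not given) and GRCm39, without saying what each did. Every gene reached 1 FPKM in at least 4 libraries, so a minimum of 1 FPKM in 3 libraries removed 0 genes, and all 41 members passed; 3.77% of all values were 0. From these values log2(FPKM + 1) was fitted with limma 3.58.1 in R 4.3.3, with an intensity trend, 1 mean per group and 40 residual degrees of freedom over all 60 libraries. All 29 comparisons were two-sided, with p adjusted over all genes and called below 0.05. Read counts are not kept by FPKM; depth was taken from the step size of low values and no count test was run. The fit was tested on simulated data.

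Named were up to 6 called members with the largest rises and 6 with the largest falls per temperature comparison and per 3 h response at 37 °C, up to 3 and 3 in other responses, up to 4 and 4 in differences, and 14 genes whatever their values. The members and lists were chosen with earlier results of these data known. Alternatives were a pseudocount of 0.1, a mean of at least 3 FPKM, rescaled libraries, only the groups compared, the replicate number as a block and leaving out each replicate. Groups came from the labels, and no 2 replicates held identical values. The values of 1 member are not reported here, though it stays in every count.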

Additional observations from a re-analysis of the deposited data

Results flagged for a closer look

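The response to 3 h of TNF-α differed between 24 and 37 °C for 6 members by a test of the difference itself (limma interaction term, adjusted over all 10122 genes). Lower were 12.2% of the members and 4.10% of all genes, and higher 2.44% and 3.82%. The terms were -1.24 for Col27a1, -1.20 for Col18a1, -1.15 for Col5a3, -1.08 for Itgb3 and -0.60 for Loxl4, each a rise at 37 °C that was not called at 24 °C. For Col12a1 the term was 0.26, a fall at 37 °C and no call at 24 °C. In a fit of only the groups compared the terms of Col18a1 and Col5a3 were called and those of the other 4 were not. No difference of responses between other temperatures was called for a member. The 24 °C libraries had the lowest estimated mean depth, 4.58 M against 6.38 M (M, mega, fragments) at 37 °C, and the part of depth in these terms was not tested.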

How the results depend on the processing

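No call of a named member changed sign under any alternative run. Fitting only the groups compared called fewer members: 10 at 24 °C in unstimulated cells (19 in the fit of all libraries), 6 with TNF-α for 3 h at 37 °C (10), 4 at 34 °C (9), 2 for the TNF-α difference of 24 and 37 °C (6), 2 with IL-1β for 3 h at 40 °C (7), and 0 with IL-1β for 3 h at 34 °C (1) and 37 °C (2) and with TNF-α (2) or IL-1β (1) for 1 h at 40 °C. A mean of at least 3 FPKM called 1 member in unstimulated cells at 40 °C (0), and a pseudocount of 0.1, or rescaled libraries, 1 with IL-1β for 3 h at 37 °C (2). Rescaling moved the split of all genes called with TNF-α for 1 h at 24 °C from 12 up and 5 down to 11 and 8.

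The replicate numbers did not meet the bar for pairing, a correlation of deviations above 0.1 in every same-numbered pair: over all genes it was above 0.1 in 56 of 570 pairs, with a median of 0.0367. At 34, 37 and 40 °C alone it was above 0.1 in 39 of 315 same-numbered pairs and in 1 of 630 others, so the numbers may share something there that the labels do not give. With the replicate number as a block, 25 members were called at 24 °C in unstimulated cells (27 with 24 °C numbered apart), among them Loxl2 (-0.46), Loxl4 (-0.26), Col4a1 (-0.22), Col5a3 (-0.36), Itgb3 (0.46) and Lamb3 (0.65), which were not called without it, and 1 member was called in unstimulated cells at 40 °C (Loxl4), with TNF-α for 1 h at 37 °C (Loxl4), and with TNF-α or IL-1β for 3 h at 24 °C, and 4 with IL-1β for 3 h at 34 or 37 °C. A replicate block with the 24 °C libraries numbered apart, chosen after seeing the data, called 1 member in those same 4 comparisons, 3 and 15 in the averages at 34 and 40 °C (1 and 9), 6 and 7 with IL-1β for 3 h at 34 and 37 °C, 16 with TNF-α and 11 with IL-1β for 3 h at 40 °C (9 and 7), and 1, Itga11, in the differences of TNF-α at 40 and 37 °C and of IL-1β at 24 and 37 °C (0 and 0). Both blocks lost 0 calls of members.

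Leaving out 1 library at a time gave 15 to 20 members at 24 °C in unstimulated cells, 26 to 30, 1 to 1 and 7 to 10 in the averages at 24, 34 and 40 °C, 8 to 10, 6 to 10, 7 to 10 and 0 to 1 with TNF-α for 3 h at 37, 34, 40 and 24 °C, 0 to 1 and 1 to 2 with TNF-α for 1 h at 37 and 40 °C, 0 to 3, 0 to 1 and 3 to 5 with IL-1β for 3 h at 37, 34 and 40 °C, 0 to 1 with IL-1β for 1 h at 40 °C, 4 to 6 for the TNF-α difference of 24 and 37 °C and 6 to 8 for TNF-α against IL-1β. The IL-1β count at 37 °C was 0 without treated replicate 2 or unstimulated replicate 3. The TNF-α difference was lowest without the treated replicate 2 at 24 °C. Depth limits the precision of genes near or below 1 FPKM, among them Lamb3, Col9a1, Col24a1 and, at 24 °C, Itga8.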

Other observations

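Within the 15 groups at 34, 37 and 40 °C, several members followed the replicate number. Fbn1 was highest in the library numbered 1 in 15 of 15 groups and lowest in that numbered 3 in 15 of 15, while at 24 °C the library numbered 1 was the lowest in 4 of 5 groups. Col4a2 was highest in number 1 and lowest in number 2 in 15 of 15 groups. Col1a1 and Col1a2 were lowest in number 2 in 15 of 15 groups at these temperatures and in 2 of 5 at 24 °C. Deviations of the 41 members from their group means correlated with a median r of 0.237 between same-numbered libraries of different groups at 34, 37 and 40 °C (315 pairs) and of -0.120 between others (630 pairs), and of 0.0206 between same-numbered libraries at 24 °C and the rest (225 pairs). The pattern was seen in the data and the labels do not say what the numbers share.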
